A study of Homo sapiens with 14 samples.

Results

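SLFN12, RAB17, PDGFD, STS, PUDP and PLA2G4A are 6 genes, with no zinc-finger gene among them, whose RNA was reduced to a small residue in HEK 293 cells that overexpress CFIm68. They were chosen by level. Each had a mean of at least 5 CPM, read counts scaled to a common library size, in the control libraries and at most 11% of that mean in the CFIm68 overexpression libraries. Of the 18006 genes in the count table, 9290 reached that control level and 12 of these, or 0.129%, lay inside both limits. The other 6 carry ZNF names, and 4 of them recur below among the genes most like these, a likeness that the shared choice fixed beforehand. The difference between CFIm68 overexpression and control therefore selected these genes, and it is given as a description with no test.

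HEK 293 is an established cell line that was made from human embryonic kidney. The groups were CFIm68 overexpression (n = 3), CFIm68 knockdown (n = 3), CFIm25 overexpression (n = 3), CFIm25 knockdown (n = 2) and control cells labelled wild type (n = 3). Knockdown was by siRNA delivered with Lipofectamine RNAiMAX, per the labels. The sources used here do not give how the overexpressing cells were made, whether they are 1 clone or several, or whether the controls were given any siRNA or vector. Nothing states that libraries of 1 group came from separate cultures, so each p-value reflects the spread among these libraries alone, and that spread may be technical.

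CFIm25 is the product of NUDT21 and CFIm68 that of CPSF6. Together they form cleavage factor I, which binds UGUA motifs in pre-mRNA upstream of cleavage sites and takes part in the choice of polyadenylation site. The genes described here have no single pathway in common. SLFN12 is a Schlafen protein with ribonuclease activity that becomes active in complex with the phosphodiesterase PDE3A, and RAB17 is a small GTPase of apical and recycling traffic in epithelial cells. PDGFD is a secreted ligand of PDGF receptor β that proteases activate by removing its CUB domain. STS, steroid sulfatase, removes sulfate from steroid sulfates, PUDP is a phosphatase of the haloacid dehalogenase family that acts on pseudouridine monophosphate, and PLA2G4A is the cytosolic phospholipase A2 that releases arachidonic acid from membrane lipids.

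Library totals ran between 15822467 and 33895308 counts. NUDT21 averaged 53.8 ± 1.2 CPM in CFIm25 knockdown and 729 ± 56 CPM in CFIm25 overexpression, against 514 ± 20 CPM in control (SD). CPSF6 averaged 730 ± 17 CPM in CFIm68 overexpression and 41.6 ± 1.0 CPM in CFIm68 knockdown, against 268.1 ± 5.8 CPM in control (SD). Each targeted gene thus moved as the labels say in its own groups. In the knockdowns the other subunit's gene also stood outside the range of the control libraries. CPSF6 averaged 533 ± 10 CPM in CFIm25 knockdown and NUDT21 232 ± 9 CPM in CFIm68 knockdown (SD). In CFIm68 overexpression NUDT21 averaged 597 ± 48 CPM (SD), with libraries at 550 to 646 CPM, all above the 500 to 537 CPM of control. CPSF6 in CFIm25 overexpression, at 252 ± 13 CPM (SD), overlapped control. The part of the other subunit's gene in the results was not tested. Of 10 genes listed for HEK 293 cells, 1 (NEFM) stayed under 1 CPM in every library. The 5 listed mesenchymal genes summed to 24.9 to 28.4 CPM in CFIm68 overexpression, against 50.5 to 54.8 CPM in control, nearly all of it COL1A1, while COL1A2 and DCN were at 0 in every library. The 6 listed keratinocyte genes summed to 9.1 to 10.5 CPM in CFIm68 overexpression, against 10.6 to 12.9 CPM in control. They summed to 19.4 to 23.1 CPM in CFIm68 knockdown, 17.4 to 19.5 CPM in CFIm25 overexpression and 14.9 to 16.2 CPM in CFIm25 knockdown. KRT5, KRT14 and TP63 were under 1 CPM throughout, while KRT17 ran from 2.28 to 14.1 CPM and CDH1 from 4.24 to 8.71 CPM. The 6 listed blood genes summed to 346.5 to 370.2 CPM in CFIm68 overexpression, against 364.7 to 369.6 CPM in control, nearly all of it LCP1, with PTPRC and HBB at 0. The part of these markers in the results was not tested. In such bulk libraries, fewer cells that express a gene and less RNA per cell cannot be told apart.

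All 6 are protein-coding genes, and positions are those of GENCODE 29 on hg38. SLFN12 (ENSG00000172123) lies at chr17:35411060-35433283 on the minus strand, and RAB17 (ENSG00000124839) at chr2:237574322-237601614 on the minus strand. PDGFD (ENSG00000170962) lies at chr11:103907186-104164379 on the minus strand, and PLA2G4A (ENSG00000116711) at chr1:186828953-186988981 on the plus strand. STS (ENSG00000101846) at chrX:7219456-7354810 on the plus strand and PUDP (ENSG00000130021) at chrX:7048920-7148190 on the minus strand are next to each other in the annotation, 71266 bases apart. The other genes are on chromosomes of their own. No exon of the 6 genes overlaps a same-strand exon of another gene. RAB17 shares 74 exonic bases with the antisense gene AC104667.2 and PDGFD 193 with DDI1 on the opposite strand, and the sources used here do not say whether counting used strand.

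Transcript ends are shown because cleavage factor I acts at RNA 3′ ends. Each is the end of the gene's longest annotated protein-coding transcript, and other annotated ends were not searched. In each 30-base run from GENCODE 29, read on the transcript's strand, the capitals mark the polyadenylation hexamer, AATAAA or its common variant ATTAAA, nearest the annotated end. The runs lie at chr17:35411075-35411104 (SLFN12, minus strand), chr2:237574327-237574356 (RAB17, minus strand), chr11:103907195-103907224 (PDGFD, minus strand) and chr1:186988945-186988974 (PLA2G4A, plus strand).
SLFN12: ctgtagttcctgAATAAAttttcttccatg
RAB17: tttcctccaaaaATTAAAttgcttttgaca
PDGFD: atcttcatgaaaAATAAAtattgcttttga
PLA2G4A: atacatacatgaAATAAAtacatcaatata

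Of these 4, RAB17 has ATTAAA nearest its end and the others AATAAA, and the STS transcript has neither hexamer in its last 40 bases. Among 11921 transcripts of tested genes, likewise the longest of each gene, AATAAA was found in the last 40 bases of 62.2% and ATTAAA of 18.2%. The DNA form of the UGUA motif, TGTA, was searched on the transcript strand alone in the last 100 bases. It occurred 2 times in STS, 1 time each in SLFN12, RAB17 and PDGFD, and 0 times in PLA2G4A, whereas 55.1% of the 11921 transcripts held it at least once and 21.4% at least 2 times. A match to these letters is a description and not a site, and an absent match says only that the letters are not in this window. Counts per gene do not show which polyadenylation site was used, and this was not analysed here.

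Promoter windows are shown for the adjacent pair STS and PUDP and for PLA2G4A, which has few CpGs. The sequences are from RefSeq, GRCh38.p14, read on each gene's strand, with CG dinucleotides in capitals. CG reads the same on both strands. The PUDP run is chrX:7148191-7148403 (minus strand), the part of its 250-base upstream window outside annotated exons. The STS run is chrX:7147462-7147711 (plus strand), before the RefSeq start site at 7147712 within PUDP, and is the richest in CG of the 5 STS windows. The PLA2G4A run is chr1:186828699-186828948 (plus strand).
PUDP: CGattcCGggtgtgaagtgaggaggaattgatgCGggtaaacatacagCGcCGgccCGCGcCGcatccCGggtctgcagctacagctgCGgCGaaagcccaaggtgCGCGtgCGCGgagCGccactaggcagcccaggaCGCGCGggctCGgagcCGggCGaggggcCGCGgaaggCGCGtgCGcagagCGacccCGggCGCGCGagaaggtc
STS: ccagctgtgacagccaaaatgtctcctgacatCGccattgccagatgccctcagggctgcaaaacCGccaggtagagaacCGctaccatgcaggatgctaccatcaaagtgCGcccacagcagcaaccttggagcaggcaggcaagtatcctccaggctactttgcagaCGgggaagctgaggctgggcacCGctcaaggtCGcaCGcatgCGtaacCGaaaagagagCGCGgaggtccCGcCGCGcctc
PLA2G4A: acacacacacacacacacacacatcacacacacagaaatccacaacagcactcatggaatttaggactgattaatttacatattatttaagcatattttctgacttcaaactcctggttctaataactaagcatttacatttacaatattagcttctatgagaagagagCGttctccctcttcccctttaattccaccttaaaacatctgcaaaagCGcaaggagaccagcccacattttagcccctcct

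All 6 genes matched the promoter table. Over 14215 windows of 250 bases upstream of RefSeq starts of 9773 tested genes, 98.6% held at least 1 CG, and the quartiles were 11, 20 and 28. The PUDP window held 41, more than 97.4% of windows. The PLA2G4A window held 2, more than 3.81% of windows. PDGFD had 23, SLFN12 9 and RAB17 6, and the 5 STS windows held between 1 and 15, with 4 in the window before the GENCODE start at 7219456. Promoters of these genes thus held both few and many CpGs. The STS start sites at 7147290 and 7147712 lie within the annotated PUDP gene, on the opposite strand, 863 and 441 bases from the PUDP start site at 7148153.

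SLFN12 had the smallest residue. Its 3 CFIm68 overexpression libraries held 0, 0 and 1 counts, against 156, 175 and 143 counts in the 3 control libraries. The ratio of summed counts was 0.228% of control, with an exact 95% interval of 0.00575% to 1.27% that covers counting error only. A count of 3, the upper limit that a count of 0 allows, would be 0.167 to 0.195 CPM in these libraries. SLFN12 has a close relative, SLFN12L, which was not analysed here, and the sources used here do not say how reads matching both were counted.

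Outside CFIm68 overexpression SLFN12 was well detected, and it was highest with CFIm25 overexpression. It stood at 10.4, 10.7 and 9.95 CPM in CFIm68 knockdown, at 16.5, 15.7 and 16.6 CPM in CFIm25 overexpression, at 10.4 and 8.33 CPM in CFIm25 knockdown, and at 8.85, 9.56 and 7.93 CPM in control. Every CFIm25 overexpression library exceeded every other library of the study. The log2 change of CFIm25 overexpression against control was 0.89 ± 0.11 (SE, edgeR adjusted p = 4.5e-08). The control libraries entered the choice of genes, through their mean level and as the denominator of the ratio, which holds for every comparison with control below. Comparisons among the other groups use no library of that choice. In these, SLFN12 was lower in CFIm25 knockdown than in CFIm25 overexpression (log2 change -0.81 ± 0.11, edgeR adjusted p = 5e-07) and lower in CFIm68 knockdown than in CFIm25 overexpression (-0.65 ± 0.10, edgeR adjusted p = 1.4e-06). Neither knockdown passed the threshold against control, with 0.24 ± 0.11 for CFIm68 knockdown (edgeR adjusted p = 0.061) and 0.08 ± 0.12 for CFIm25 knockdown (edgeR adjusted p = 0.63). Without control replicate 2 the CFIm68 knockdown value was 0.30 and passed (edgeR adjusted p = 0.040), and in a fit to these groups alone 0.24 passed (edgeR adjusted p = 0.039). Without CFIm25 knockdown replicate 1 the CFIm25 knockdown value was -0.08, of the other sign.

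PDGFD, the growth factor, showed a like order of groups at higher levels. It had 5, 4 and 9 counts in CFIm68 overexpression (0.32, 0.22 and 0.56 CPM), against 24.96, 23.5 and 24.7 CPM in control, so the mean was 1.52% of control. In the other groups it stood at 47.8, 43.5 and 45.0 CPM in CFIm68 knockdown, 66.6, 58.6 and 56.6 CPM in CFIm25 overexpression, and 40.4 and 40.6 CPM in CFIm25 knockdown. None of these libraries overlapped control, and all were above it. PDGFD rose 2.49-fold with CFIm25 overexpression (log2 change 1.32 ± 0.07, edgeR adjusted p = 1.4e-14), 1.87-fold with CFIm68 knockdown (0.90 ± 0.07, edgeR adjusted p = 3.3e-11) and 1.66-fold with CFIm25 knockdown (0.73 ± 0.08, edgeR adjusted p = 2.6e-08). It was lower in CFIm25 knockdown than in CFIm25 overexpression (-0.58 ± 0.08, edgeR adjusted p = 2.3e-07) and lower in CFIm68 knockdown than in CFIm25 overexpression (-0.42 ± 0.07, edgeR adjusted p = 4.1e-06). PDGFD is thus a gene that stood above control both when CFIm25 was raised and when it was reduced.

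**Figure D1:**
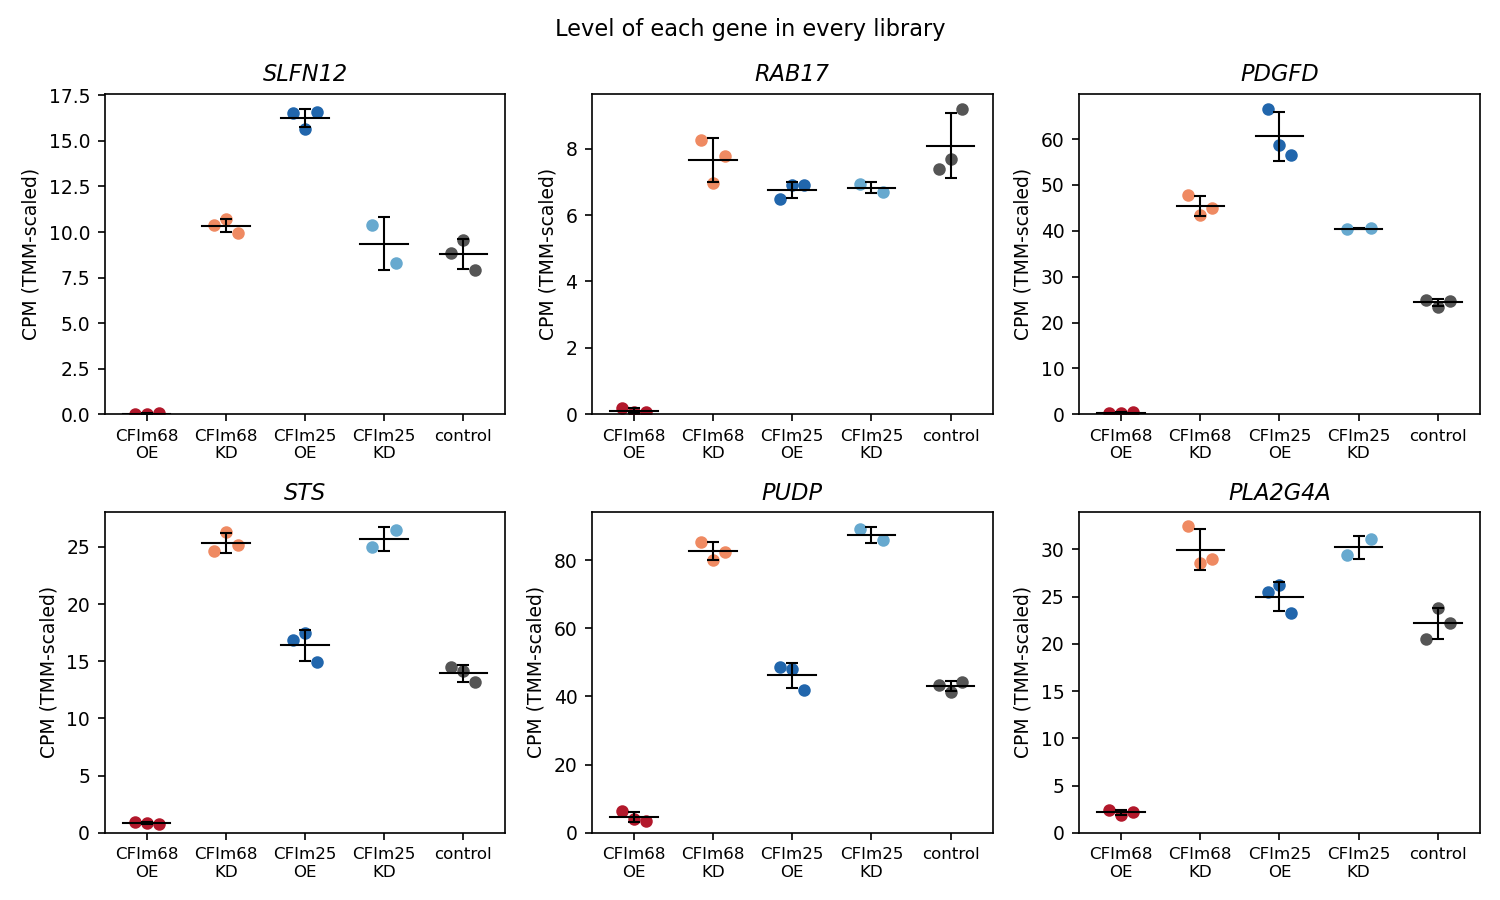
Level of each gene in TMM-scaled CPM (linear axis from 0) in every library, 1 point per library, by group; black lines and bars are the mean ± SD of 3 libraries, or 2 for CFIm25 knockdown. The CFIm68 overexpression points lie at 0 to 6.37 CPM and below every other library of the same gene; SLFN12 and PDGFD are highest in CFIm25 overexpression, and STS, PUDP and PLA2G4A in the knockdowns.

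STS, PUDP and PLA2G4A shared another order, with the knockdown groups highest. STS had 15, 15 and 12 counts in CFIm68 overexpression (0.97, 0.84 and 0.75 CPM), against 14.5, 14.2 and 13.1 CPM in control, a mean of 6.13% of control. It stood at 24.6, 26.3 and 25.1 CPM in CFIm68 knockdown, 16.8, 17.5 and 14.9 CPM in CFIm25 overexpression, and 24.97 and 26.4 CPM in CFIm25 knockdown. Both knockdowns lay above all CFIm25 overexpression and control libraries. STS rose 1.82-fold with CFIm68 knockdown (log2 change 0.86 ± 0.08, edgeR adjusted p = 3.7e-10) and 1.85-fold with CFIm25 knockdown (0.89 ± 0.09, edgeR adjusted p = 3.1e-09). Its rise with CFIm25 overexpression was small (0.24 ± 0.09, edgeR adjusted p = 0.02), and it missed the threshold without CFIm25 overexpression replicate 2 (0.19, edgeR adjusted p = 0.080) or without control replicate 3 (0.20, edgeR adjusted p = 0.081). STS has a pseudogene copy elsewhere in the genome, and the sources used here do not say how reads matching both were counted.

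PUDP, the neighbour of STS, kept the largest residue of the 6, with 98, 75 and 56 counts in CFIm68 overexpression. That is 6.37, 4.18 and 3.51 CPM, against 43.5, 41.3 and 44.1 CPM in control, a mean of 10.9% of control and close to the 11% limit. PUDP stood at 85.3, 80.04 and 82.5 CPM in CFIm68 knockdown, 48.7, 48.1 and 42.0 CPM in CFIm25 overexpression, and 89.1 and 85.8 CPM in CFIm25 knockdown. The knockdown libraries were near double those of control, and the CFIm25 overexpression libraries overlapped control. PUDP rose 1.92-fold with CFIm68 knockdown (log2 change 0.94 ± 0.08, edgeR adjusted p = 2.4e-11) and 2.03-fold with CFIm25 knockdown (1.02 ± 0.08, edgeR adjusted p = 9e-11). With CFIm25 overexpression it did not pass (0.11 ± 0.08, edgeR adjusted p = 0.25).

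PLA2G4A, the arachidonate-releasing phospholipase, followed the same order with smaller changes. It had 37, 33 and 35 counts in CFIm68 overexpression (2.40, 1.84 and 2.20 CPM), against 20.5, 23.8 and 22.2 CPM in control, a mean of 9.68% of control. In CFIm68 knockdown it stood at 32.4, 28.5 and 28.97 CPM, in CFIm25 overexpression at 25.5, 26.2 and 23.2 CPM, and in CFIm25 knockdown at 29.4 and 31.1 CPM. Every knockdown library was above every control library. PLA2G4A rose 1.35-fold with CFIm68 knockdown (log2 change 0.44 ± 0.08, edgeR adjusted p = 2.2e-05) and 1.37-fold with CFIm25 knockdown (0.45 ± 0.08, edgeR adjusted p = 8.2e-05). CFIm25 overexpression missed the threshold (0.17 ± 0.08, edgeR adjusted p = 0.068) and passed it without CFIm25 overexpression replicate 3 (0.22, edgeR adjusted p = 0.033) or without control replicate 2 (0.23, edgeR adjusted p = 0.034).

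RAB17, the trafficking GTPase, was at control level or slightly below it in every group but CFIm68 overexpression. It had 3, 1 and 1 counts there (0.19, 0.06 and 0.06 CPM), against 7.37, 7.70 and 9.20 CPM in control, a mean of 1.29% of control. Its other libraries stood at 8.25, 6.95 and 7.77 CPM in CFIm68 knockdown, 6.48, 6.90 and 6.90 CPM in CFIm25 overexpression, and 6.95 and 6.71 CPM in CFIm25 knockdown. No tested comparison of RAB17 passed the threshold. Its log2 change was -0.26 ± 0.12 with CFIm25 overexpression (edgeR adjusted p = 0.062), -0.25 ± 0.13 with CFIm25 knockdown (edgeR adjusted p = 0.11) and -0.08 ± 0.11 with CFIm68 knockdown (edgeR adjusted p = 0.59), each against control. Without control replicate 1 the CFIm25 overexpression value was -0.33 and passed (edgeR adjusted p = 0.040). Without control replicate 3 the CFIm68 knockdown value was 0.03, of the other sign.

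The 6 genes also differ in abundance, compared here as CPM per kilobase of exon. In control the mean levels per kilobase were 13.6 for PUDP, 7.71 for PLA2G4A, 5.71 for PDGFD, 2.47 for SLFN12, 2.14 for STS and 1.69 for RAB17. In CFIm68 overexpression they were 1.48 for PUDP, 0.746 for PLA2G4A, 0.131 for STS, 0.087 for PDGFD, 0.022 for RAB17 and 0.0059 for SLFN12. PUDP and PLA2G4A led both orders. PDGFD stood below STS in CFIm68 overexpression and above it in the other groups.

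Fitted log2 changes of CFIm68 overexpression against control, given with no test, were -8.39 for SLFN12, -6.24 for RAB17, -6.04 for PDGFD, -4.02 for STS, -3.37 for PLA2G4A and -3.21 for PUDP. The value for SLFN12 rests on 1 count and depends on how the fit treats zeros. At the edge of the choice, PUDP stood at 10.9% of control just inside the limit. PCDH19 at 11.2%, CYP27A1 at 14.9% and SDR42E1 at 16.9% were the next genes outside it. The median gene with at least 5 CPM in control stood at 101% of control, 52 of 9290 genes stood at 50% or less, and 21 at 25% or less.

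**Figure D2:**
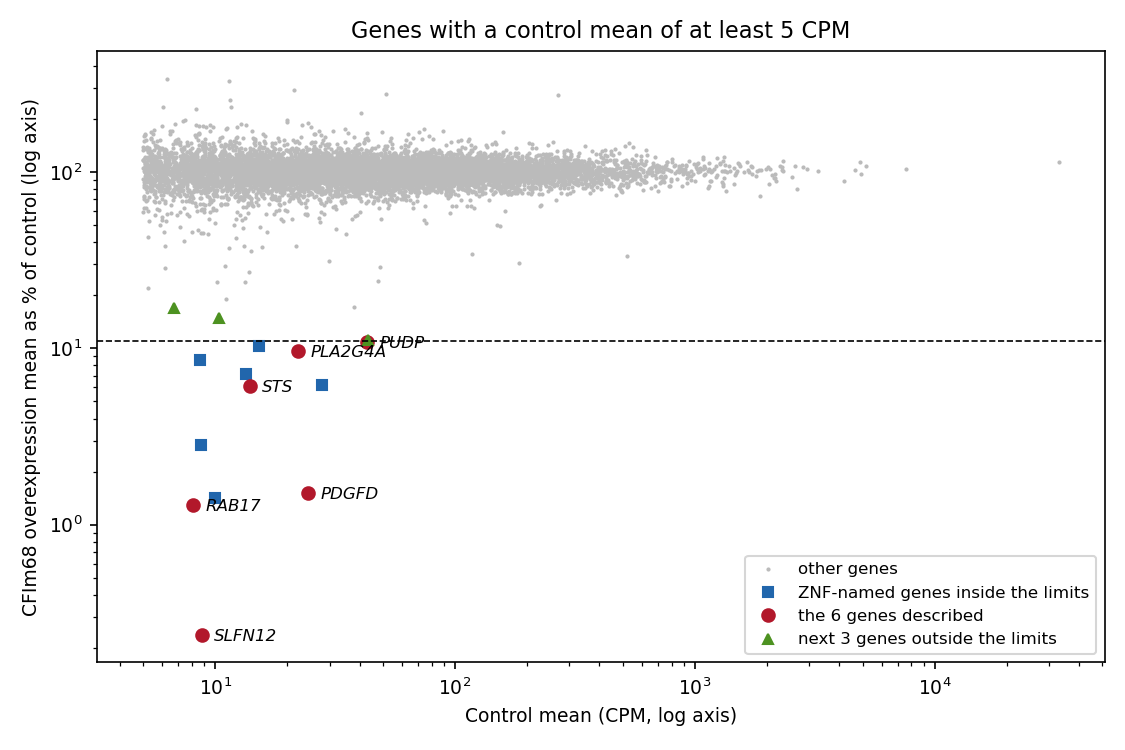
Mean CPM in CFIm68 overexpression as a percentage of the control mean (log axis) against the control mean in CPM (log axis) for the 9290 genes with a control mean of at least 5 CPM, with values under 0.1% drawn at 0.1%; the dashed line is the 11% limit. The cloud of genes is centred at 101%, and the 6 genes described lie between 0.238% and 10.9%.

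Counted over the 6 genes, 4 rose and 0 fell with CFIm68 knockdown against control, at a background of 56.4% of tested genes called, 28.3% higher and 28.1% lower. With CFIm25 knockdown 4 rose and 0 fell, at a background of 47.6% called, 24.4% higher and 23.2% lower. With CFIm25 overexpression 3 rose and 0 fell, at a background of 56.7% called, 27.7% higher and 29.1% lower. The median log2 change of the 6 was 0.65, 0.59 and 0.20 in these comparisons, beside medians of 0.00 over all tested genes. All 3 comparisons share the control libraries and therefore are not separate evidence of direction.

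The knockdowns of CFIm68 and CFIm25 were not separated by these genes past the threshold. Of 6 genes, 0 passed between CFIm68 knockdown and CFIm25 knockdown by edgeR, where 24.2% of tested genes did (11.1% higher and 13.2% lower in CFIm68 knockdown), and 1 had an unadjusted p under 0.05. Log2 differences lay between -0.08 ± 0.08 (PUDP, edgeR adjusted p = 0.50) and 0.17 ± 0.12 (RAB17, edgeR adjusted p = 0.33). The 95% interval was -0.24 to 0.07 for PUDP, -0.18 to 0.13 for STS, -0.17 to 0.15 for PLA2G4A and 0.02 to 0.32 for PDGFD. For SLFN12 it was -0.06 to 0.38 and for RAB17 -0.07 to 0.41. In a fit to these groups alone PDGFD passed (log2 change 0.17, edgeR adjusted p = 0.022), making the count 1. DESeq2 and limma-voom each gave 0.

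Knockdown and overexpression of CFIm25 separated the genes. Between CFIm25 knockdown and CFIm25 overexpression 5 of 6 passed, at a background of 56.1% (28.6% higher and 27.5% lower). PUDP (log2 change 0.92 ± 0.08, edgeR adjusted p = 2.3e-10), STS (0.65 ± 0.08, edgeR adjusted p = 2.1e-07) and PLA2G4A (0.28 ± 0.08, edgeR adjusted p = 0.0062) were higher in the knockdown, and SLFN12 and PDGFD lower. RAB17 stood at 0.02 ± 0.13 (edgeR adjusted p = 0.93). Between CFIm68 knockdown and CFIm25 overexpression the same 5 genes passed in the same directions, at a background of 64.5% (32.4% higher and 32.1% lower), with 0.83 ± 0.08 for PUDP (edgeR adjusted p = 1e-10), 0.63 ± 0.08 for STS (edgeR adjusted p = 4.6e-08) and 0.26 ± 0.08 for PLA2G4A (edgeR adjusted p = 0.0033). These comparisons share the CFIm25 overexpression libraries. The PLA2G4A call was lost without CFIm25 knockdown replicate 2 in the first (edgeR adjusted p = 0.084) and without CFIm68 knockdown replicate 1 in the second (edgeR adjusted p = 0.052).

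**Figure D3:**
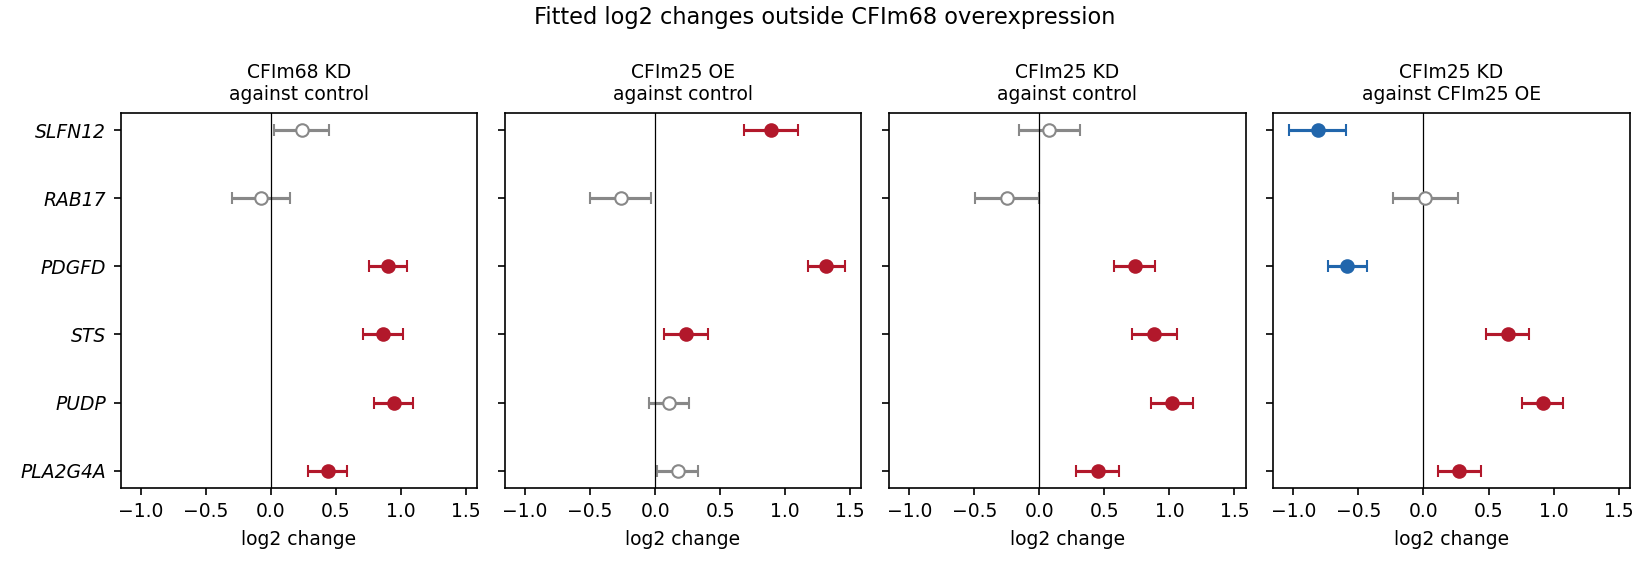
Fitted log2 change (points) with its 95% interval (bars) of each gene in CFIm68 knockdown, CFIm25 overexpression and CFIm25 knockdown against control and in CFIm25 knockdown against CFIm25 overexpression; red points are higher and blue points lower past an edgeR adjusted p of 0.05, and open grey points are not past it. SLFN12 and PDGFD are blue and STS, PUDP and PLA2G4A red in the last panel, while RAB17 is open in all 4.

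The genes next to the 6 on their chromosomes were examined to see how far the low values extended. Taking 5 genes of the table on each side gave 50 neighbours, of which 13 were at 0 in every library and 19 could be tested. Of the 19, 9 were lower and 1 higher in CFIm68 overexpression than in control, or 52.6%, at a background of 29.8% of all tested genes. Their median log2 change was -0.10, beside 0.01 over all tested genes. Between 6 and 10 passed when single libraries were left out, with 6 without CFIm68 overexpression replicate 2, without CFIm68 overexpression replicate 3 or without control replicate 2.

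Around SLFN12, 5 of 6 tested neighbours were lower, all by small amounts. Its Schlafen relative SLFN13, 1813 bases away, averaged 11.5 ± 1.5 CPM in CFIm68 overexpression, against 15.6 ± 1.0 CPM in control (SD, log2 change -0.44 ± 0.10, edgeR adjusted p = 0.0012). SLFN11, a Schlafen protein known for sensitising cells to DNA damage, averaged 542 ± 19 CPM in CFIm68 overexpression, against 597 ± 12 CPM in control (-0.14 ± 0.05, edgeR adjusted p = 0.031). Farther out, AP2B1, a subunit of the clathrin adaptor AP-2, changed by -0.24 ± 0.05 (edgeR adjusted p = 0.00046) and the RNA-binding protein gene TAF15 by -0.14 ± 0.05 (edgeR adjusted p = 0.025). SLFN12 itself stood at 0.238% of control beside these changes of less than 1 on the log2 scale. The SLFN11 and TAF15 calls were each lost without CFIm68 overexpression replicate 2 or 3 or control replicate 1 or 2.

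Near PLA2G4A the adjacent gene on one side was also low. PTGS2, the inducible cyclooxygenase that converts the arachidonic acid released by PLA2G4A, lies 148.5 kb away and was at a low level in all groups. It had 17, 12 and 14 counts in CFIm68 overexpression, against 39, 38 and 41 counts in control. The log2 change was -1.32 ± 0.26 (edgeR adjusted p = 0.00026), and the libraries did not overlap. The neighbour on the other side, LINC01036, had at most 1 count in any library. HMCN1, an extracellular matrix gene 638 kb away, stood at -0.19 ± 0.07 (edgeR adjusted p = 0.047), a call missed in 9 of 21 alternatives, namely by limma-voom and without any one of CFIm68 overexpression replicates 1, 2 and 3, CFIm68 knockdown replicate 2, CFIm25 knockdown replicates 1 and 2, and control replicates 1 and 2. TPR and ODR4 did not pass.

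Near RAB17, IQCA1, a gene with an IQ calmodulin-binding motif 1067 kb away, had 0, 2 and 0 counts in CFIm68 overexpression, against 40, 40 and 31 counts in control. Its log2 change was -5.47 ± 0.50 (edgeR adjusted p = 1.8e-09). Its control mean of 2.06 ± 0.30 CPM (SD) was under the 5 CPM limit, so it could not be among the 6. In the other groups IQCA1 averaged 4.65 CPM in CFIm68 knockdown, 6.54 CPM in CFIm25 overexpression and 3.69 CPM in CFIm25 knockdown. SCLY, selenocysteine lyase, stood at -0.32 ± 0.09 (edgeR adjusted p = 0.0086), which missed the threshold without control replicate 3, and COPS8, RAMP1 and UBE2F, which lie between RAB17 and IQCA1 or SCLY, did not pass. The immediate neighbours PRLH and LRRFIP1 are listed at 0 in every library.

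Around PDGFD 0 of 3 tested neighbours passed by edgeR, 0 had an unadjusted p under 0.05, and 0 passed by DESeq2 or limma-voom. The nearest of them, DYNC2H1, a dynein heavy chain of cilia, averaged 40.5 ± 3.1 CPM in CFIm68 overexpression and 41.3 ± 6.1 CPM in control (SD, log2 change -0.03 ± 0.09, edgeR adjusted p = 0.84), a sign that turned without CFIm68 overexpression replicate 3, control replicate 1 or control replicate 2. CASP4 on the other side is listed at 0 in every library. Around STS and PUDP the only tested neighbour apart from the pair itself was ANOS1, which encodes the extracellular matrix protein anosmin. It was higher, at 213 ± 14 CPM in CFIm68 overexpression and 148.0 ± 7.9 CPM in control (SD, log2 change 0.52 ± 0.06, edgeR adjusted p = 6.1e-08).

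**Figure D4:**
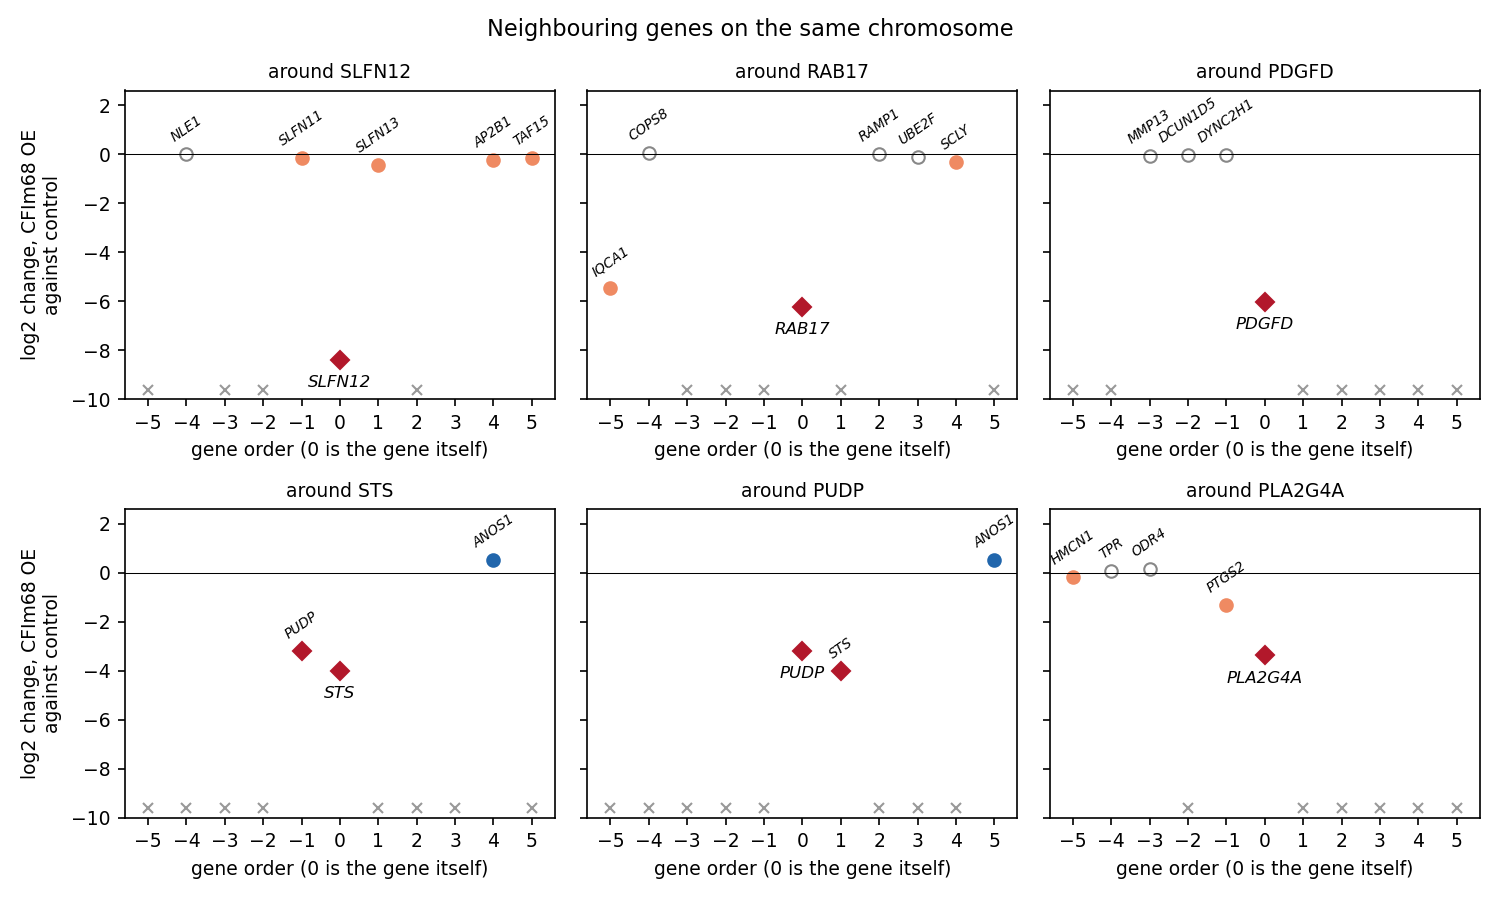
Fitted log2 change of CFIm68 overexpression against control for genes among the 5 on each side of each of the 6 genes, in chromosome order; dark red diamonds are the 6 genes themselves, orange circles lower and blue circles higher genes past an edgeR adjusted p of 0.05, open grey circles genes not past it, and crosses at the foot of a panel genes too low to test. STS and PUDP are each other's neighbours, IQCA1 at -5.47 and PTGS2 at -1.32 are the lowest of the others, and the other neighbours drawn lie between -0.44 and 0.52.

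Genes of the same families and pathways were compared in CFIm68 overexpression against control, from 1 list per gene. Of 133 listed genes 100 were tested, and 16 were higher and 21 lower, or 37 in all, at a background of 14.5% higher and 15.4% lower. Their median log2 change was 0.01, as for all tested genes. The Schlafen list had 2 tested genes, SLFN11 and SLFN13 described above, both lower. In the other perturbations 1 of these 2 rose in each comparison with control.

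Of 10 tested PDGF ligands, receptors and activating proteases, 4 were higher, 0 lower and 6 not past the threshold in CFIm68 overexpression, at a background of 14.5% higher and 15.4% lower. PDGFB, a ligand that shares PDGF receptor β with PDGFD, averaged 6.20 ± 0.28 CPM in CFIm68 overexpression, against 2.997 ± 0.94 CPM in control (SD, log2 change 1.05 ± 0.17, edgeR adjusted p = 3.1e-05). FURIN, a proprotein convertase, averaged 169 ± 14 CPM in CFIm68 overexpression, against 132.0 ± 3.1 CPM in control (0.36 ± 0.06, edgeR adjusted p = 4.4e-05). Urokinase, PLAU, which can activate PDGFD, stood at 0.72 ± 0.22 (edgeR adjusted p = 0.015), which missed the threshold without CFIm68 overexpression replicate 2 or control replicate 1.

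In the phospholipase and eicosanoid list 4 of 21 tested genes were higher and 6 lower. PTGS2 is among the 6 lower genes. PTGIS, prostacyclin synthase, was low in both groups, at 0.42 ± 0.20 CPM in CFIm68 overexpression and 0.93 ± 0.10 CPM in control (SD, log2 change -1.11 ± 0.38, edgeR adjusted p = 0.027), which missed the threshold without CFIm68 overexpression replicate 3, control replicate 1 or control replicate 2. The lysophospholipid acyltransferases LPCAT1 (0.34 ± 0.05, edgeR adjusted p = 1.4e-05) and LPCAT4 (0.36 ± 0.09, edgeR adjusted p = 0.0025) were higher. PLA2G4B, a relative of PLA2G4A, was not analysed here.

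Of 25 tested Rab and recycling genes 2 were higher and 7 lower in CFIm68 overexpression, among them the recycling endosome genes EHD3 (-0.63 ± 0.10, edgeR adjusted p = 1.3e-05) and RAB11FIP5 (-0.38 ± 0.06, edgeR adjusted p = 3e-05). In CFIm68 knockdown 15 of the 25 were higher and 3 lower than control, at a background of 28.3% higher and 28.1% lower. Of 18 tested sulfatase and steroid sulfate genes 1 was higher and 2 lower. IDS, the lysosomal iduronate sulfatase, changed by -0.49 ± 0.08 (edgeR adjusted p = 1.8e-05), and PAPSS2, which makes the sulfate donor, by 0.24 ± 0.06 (edgeR adjusted p = 0.0017). Of 24 tested pseudouridine synthase and haloacid dehalogenase phosphatase genes 5 were higher and 4 lower, with DKC1, the pseudouridine synthase of box H/ACA particles, at -0.37 ± 0.05 (edgeR adjusted p = 1.5e-06) and the nucleotidase NT5C3B at -0.19 ± 0.05 (edgeR adjusted p = 0.0036). In CFIm68 knockdown 1 of these 24 was higher and 15 lower, at the same background of 28.3% higher and 28.1% lower. The other lists were less one-sided in that comparison, with 5 higher and 4 lower of 18 sulfatase genes. The PDGF list had 3 higher and 2 lower of 10, and the phospholipase list 2 higher and 7 lower of 21. Over all 6 lists 27 of 100 tested genes were higher and 31 lower in CFIm68 knockdown. None of the family genes named here came within the 11% limit, which was settled beforehand for those with at least 5 CPM in control. The 12 genes inside both limits were the 6 genes described and 6 with ZNF names.

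Across the 14 libraries, the genes most like each of the 6 were sought by Pearson correlation of log2 CPM among genes averaging at least 5 CPM. The points share libraries, and the 3 CFIm68 overexpression libraries lie far from the rest, so the correlations are a description. For SLFN12 the top genes were ZNF468 (r = 0.992), COL5A2 (r = 0.989) and ZNF816 (r = 0.988), and for PDGFD they were ZNF816 (r = 0.988), ZNF468 (r = 0.987) and ZNF808 (r = 0.986). For RAB17 they were COL5A2 (r = 0.982), ZNF468 (r = 0.974) and ZNF667 (r = 0.971). STS had SCIN (r = 0.993), PRKCB (r = 0.989) and C2CD2 (r = 0.981), PUDP had PRKCB (r = 0.987), FAM13C (r = 0.982) and SCIN (r = 0.981), and PLA2G4A had SCIN (r = 0.990), PRKCB (r = 0.977) and COL5A2 (r = 0.976). ZNF468, ZNF816, ZNF808 and ZNF667 passed the same selection on CFIm68 overexpression and control, so a high r with them was fixed by the choice of genes and is no separate evidence. Partners were shared across genes with different orders of groups: COL5A2 stood in the lists of SLFN12, RAB17 and PLA2G4A. It averaged 14.1 CPM in CFIm68 overexpression and 48.8 CPM in control. SCIN, PRKCB, C2CD2 and FAM13C were also lower in CFIm68 overexpression than in control. The correlations include the libraries of the choice, so partners of this kind and their sharing are no separate evidence either. ZNF816 averaged 0.965 CPM in CFIm68 overexpression, 15.2 CPM in CFIm68 knockdown, 30.1 CPM in CFIm25 overexpression, 15.1 CPM in CFIm25 knockdown and 13.5 CPM in control. SCIN, which encodes an actin-severing protein, averaged 11.5, 59.1, 57.8, 70.0 and 47.7 CPM in CFIm68 overexpression, CFIm68 knockdown, CFIm25 overexpression, CFIm25 knockdown and control in that order.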

How the data were processed

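The labels' protocols give a TruSeq Stranded mRNA kit on total RNA. What was deposited is a table of raw read counts, 1 row per gene, for 14 libraries. Per the submitters' processing notes, the tools were cutadapt 1.16 and STAR 2.7.1a, with build hg38. The sources used here name no counting program, annotation or strand setting. Identifiers of 17983 of 18006 genes matched GENCODE 29.

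Counts were tested with edgeR 4.0.16 in R 4.3.3 by a quasi-likelihood fit of all 14 libraries, with 1 coefficient per group, after filterByExpr (minimum count 10, total 15; 12080 genes kept) and TMM scaling (factors 0.973 to 1.05). Adjustment was by Benjamini-Hochberg over all tested genes, at a threshold of 0.05. The test was checked on simulated counts of independent libraries, drawn with the spread fitted to these data. Such a check cannot show how the test behaves if libraries of a group are technical replicates. CPM are TMM-scaled.

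The 6 genes and the lists were chosen with earlier results of these data known. The naming rule takes the 6 genes, neighbours that passed or are adjacent, list genes that passed with a log2 change of at least 1 and otherwise the 2 with the smallest adjusted p per list, the 3 genes nearest outside the limits and the 3 most alike per gene. Other genes were named after their values were seen. Alternatives were median-ratio factors, no filter, at least 1 CPM in at least 3 libraries, DESeq2 1.42.0, limma-voom (limma 3.58.1), a fit to the compared groups, a replicate block and leaving out each library. CPM on total counts was added after seeing the data. The value of 1 neighbour and the end of 1 transcript are not reported here.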

Additional observations from a re-analysis of the deposited data

Results flagged for a closer look

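For 3 of the genes both overexpression groups lay on opposite sides of control, with every CFIm68 overexpression library below and every CFIm25 overexpression library above all 3 control libraries. The log2 change of CFIm25 overexpression against control was 0.89 for SLFN12, 1.32 for PDGFD and 0.24 for STS. The CFIm68 side was fixed by the choice of the genes, and the difference between the overexpression groups was not tested. The STS value is the smallest of these and missed the threshold in 2 of the alternatives that leave out a library. Over all tested genes, 27.7% were called higher in CFIm25 overexpression than in control. The share of all genes whose libraries do not overlap control was not counted.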

How the results depend on the processing

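Of 756 values of the 6 genes in tested comparisons under 21 alternatives, 733 kept their direction and their side of the threshold, 4 lost a call, 6 gained one and 13 turned sign. All 13 were changes near 0 that did not pass. Between the knockdowns they were STS with the replicate block (0.014) and over left-out libraries (-0.061 to 0.022), PLA2G4A with the block (0.011) and over left-out libraries (-0.071 to 0.031), and SLFN12 (-0.0066 to 0.314). RAB17 between CFIm25 knockdown and CFIm25 overexpression was -0.00031 in a fit to those groups and -0.038 to 0.046 over left-out libraries. Against control, SLFN12 in CFIm25 knockdown ran from -0.076 to 0.244 and RAB17 in CFIm68 knockdown from -0.143 to 0.026. Of 126 values in CFIm68 overexpression against control, 4 moved beyond the replicate spread and 0 turned sign. They ranged from -10.6 to -7.64 for SLFN12 and from -6.97 to -5.92 for RAB17. Between the knockdowns 0 of the 6 genes passed, and 1 (PDGFD) in a fit to those groups alone, while the count over all genes was 2929, between 1465 (without CFIm25 knockdown replicate 1) and 3344 over left-out libraries. Neighbours past the threshold numbered 10, and 6 to 10 over left-out libraries. Of 483 values of named neighbours and family genes 28 lost a call and 3 turned sign, all DYNC2H1 (-0.142 to 0.062). The cause of these shifts was not tested. CPM on total counts kept the same number of genes inside the limits, 12.

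Same-numbered libraries of different groups deviated together with correlations of -0.06 to 0.17 (median 0.02, 26 pairs). Differently numbered libraries gave -0.18 to 0.08 (median -0.01, 52 pairs). Between CFIm68 and CFIm25 overexpression the same-numbered values were 0.17, 0.02 and 0.11. Differently numbered pairs of these groups ran from -0.18 to 0.08. A weak pairing by number is therefore not settled by these values, and the main fit did not include one. The replicate block moved no count of calls of the 6 genes. Depth limits the residues of SLFN12 and RAB17, which had 0 to 3 counts per CFIm68 overexpression library; the counting interval for RAB17 was 0.399% to 2.90% of control.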
